A study of Mus musculus with 24 samples.

Results

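The 9 complement genes described here were followed through a mouse model of hypothalamic injury, and all of them had a row in the table of 22274 genes. They were chosen by name, with earlier results of these data known. They are the 3 chains of the recognition protein C1q (C1qa, C1qb and C1qc), the cleaved components C4b and C3, the inhibitor Serping1, and the receptors C3ar1, C5ar1 and Itgam. RNA was sequenced from 24 libraries in 8 groups of 3. In the hypothalamus, the groups were Sham, pituitary stalk electrical lesion (PEL) at day 3 (PEL_3d) and at day 10 (PEL_10d), and the same 3 states with growth hormone (Sham-GH, PEL_3d-GH and PEL_10d-GH). In the hippocampus, they were Sham and PEL at day 10. The study's methods describe its mice as male C57BL/6J, and neither age nor pooling of animals was found in the sources used here. The hypothalamic piece held the supraoptic and paraventricular nuclei, whose vasopressin and oxytocin axons run in the pituitary stalk. Sham libraries carry the time label day 0, so time since surgery was not matched between Sham and lesion groups. The dose and schedule of growth hormone are not given in the sources used here.

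Complement is a protein cascade that tags cells, debris and synapses for removal. C1q binds a surface and, with the proteases C1r and C1s, starts the classical pathway. These cleave C4 and C2, and the resulting enzyme cleaves C3, whose fragments coat the surface and are bound by the integrin CR3, of which Itgam is the alpha chain. The small fragments C3a and C5a act through C3ar1 and C5ar1, and Serping1 (C1 inhibitor) blocks C1r and C1s. In the brain, C1q is made mainly by microglia, the resident macrophages, while C4 and C3 are also made by astrocytes and other cells.

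The start regions of the members are shown because genes that moved together in these libraries can be set against the letters in front of them. RefSeq windows of GRCm38.p6, from 250 bases before to 50 bases after the start of the gene, matched 6 of the 9 members. Each window was searched on both strands for GAGGAA, the core of the PU box bound by the myeloid factor PU.1, and for TTGCNNAA, a C/EBP motif. Capitals mark the matches, and TTCCTC in capitals is a GAGGAA match on the other strand. The windows, printed on the gene's own strand, were chr4:136886151-136886450 (minus strand) for C1qb, chr4:136892865-136893164 (minus) for C1qc, chr7:128062390-128062689 (plus) for Itgam and chr17:57228087-57228386 (minus) for C3.
C1qb: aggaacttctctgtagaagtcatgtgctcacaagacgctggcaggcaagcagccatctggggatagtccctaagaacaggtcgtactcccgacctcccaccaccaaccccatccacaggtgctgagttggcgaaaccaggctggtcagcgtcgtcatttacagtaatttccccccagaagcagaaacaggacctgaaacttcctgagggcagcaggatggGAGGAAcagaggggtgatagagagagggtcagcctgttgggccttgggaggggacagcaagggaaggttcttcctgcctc
C1qc: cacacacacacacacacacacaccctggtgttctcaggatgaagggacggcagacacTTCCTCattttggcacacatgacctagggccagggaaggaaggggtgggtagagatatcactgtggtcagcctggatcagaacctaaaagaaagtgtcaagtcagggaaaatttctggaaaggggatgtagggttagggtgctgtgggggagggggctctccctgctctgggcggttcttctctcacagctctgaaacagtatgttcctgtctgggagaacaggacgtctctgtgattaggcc
Itgam: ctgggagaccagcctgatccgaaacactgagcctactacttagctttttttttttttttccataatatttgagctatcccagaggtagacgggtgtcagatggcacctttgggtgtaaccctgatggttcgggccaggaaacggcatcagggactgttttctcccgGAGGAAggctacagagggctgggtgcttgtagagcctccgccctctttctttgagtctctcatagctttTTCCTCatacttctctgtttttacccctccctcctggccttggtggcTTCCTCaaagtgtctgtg
C3: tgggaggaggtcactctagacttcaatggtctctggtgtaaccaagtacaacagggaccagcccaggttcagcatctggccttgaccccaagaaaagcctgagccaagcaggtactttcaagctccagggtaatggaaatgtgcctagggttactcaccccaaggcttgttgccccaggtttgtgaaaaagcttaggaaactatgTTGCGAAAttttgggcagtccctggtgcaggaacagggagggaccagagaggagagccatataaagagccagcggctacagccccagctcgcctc
GAGGAA was present in 3 of the 6 windows, those of C1qb, C1qc and Itgam, and in 28.3% of all 32851 RefSeq windows of that length. Itgam held 3 matches. TTGCNNAA was present in 1 of the 6, that of C3, and in 10.8% of all windows. The 2 motifs did not overlap in any member, and a match is a description of letters, not a binding site.

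In the genome (GRCm38, GENCODE annotation), the 3 C1q genes lie side by side on chromosome 4, within 18.7 kb, from 136880129 to 136898803. C1qa spans 136895917 to 136898803, C1qc 136889804 to 136893065 and C1qb 136880129 to 136886187, all on the minus strand. C3 (57203970 to 57228136) and C4b (34728380 to 34743882) lie on chromosome 17. Itgam (128062640 to 128118491) and C5ar1 (16246743 to 16259540) lie on chromosome 7, C3ar1 on chromosome 6 (122847138 to 122856161) and Serping1 on chromosome 2 (84765387 to 84775444). C4a, the near-identical neighbour of C4b, had no row in the table, so reads shared by the pair could not be divided and the C4b values carry that uncertainty.

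Total counts ran from 15095267 to 17973494 per library. Of the libraries, 2 went against their labels. Replicate 1 of hypothalamic Sham listed Avp at 0.453 FPKM and Oxt at 1.46 FPKM, against 139.9 or more and 89.0 or more in the other 2 Sham libraries, and it listed Ttr, a choroid plexus gene, at 14320 FPKM. Its summed level of 10 hippocampal markers was 245 FPKM, against 46.2 and 49.1 FPKM in the other hypothalamic Sham libraries and 262 to 376 FPKM in the hippocampal libraries other than Sham replicate 1. Replicate 1 of hippocampal Sham listed Avp at 139.0 FPKM, Oxt at 114 FPKM and 44.0 FPKM over the 10 hippocampal markers. Both were left out of the main values, and results with all libraries as labelled are given beside those that rest on them. Replicate 3 of hippocampal Sham is titled hippocampus while its tissue field says hypothalamus, and it listed Neurod6, a marker of hippocampal pyramidal cells, at 143 FPKM.

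In unlesioned hypothalamus, the C1q chains stood highest, followed by Serping1, C4b, Itgam, C3, C3ar1 and C5ar1. Levels are in FPKM, which scales the fragments of a gene by its transcript length and by the depth of the library, so that genes can be set against each other. The means of the 2 Sham libraries were 28.3 FPKM for C1qa, 23.2 for C1qc, 23.1 for C1qb, 14.6 for Serping1, 7.53 for C4b, 4.89 for Itgam, 1.28 for C3, 0.462 for C3ar1 and 0.372 for C5ar1. Within this order, C1qc and C1qb overlapped in range, as did C3ar1 and C5ar1, and every other pair of neighbours was apart. C5ar1 rested on 4 and 9 counts in the Sham libraries and C3ar1 on 32 and 29, so their folds have a thin base. For C3 and C5ar1 the length that ties FPKM to counts varied 3.06-fold and 3.17-fold among libraries, so fold changes and their tests are taken from counts.

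At day 3 after the lesion, all 9 genes were higher than in Sham, and the receptors for the small fragments had the largest folds. C5ar1 rose 43.2-fold and C3ar1 40.6-fold, the C1q chains 8.92-fold to 11.03-fold, Itgam 7.83-fold, C4b 4.56-fold, C3 3.67-fold and Serping1 1.45-fold. In edgeR (quasi-likelihood, Benjamini-Hochberg adjusted over 14905 genes), adjusted p ran from 3.39e-08 to 0.00804. Over the whole table, 22.2% of genes tested were called higher in this comparison and the median log2 fold change was -0.01, and it was 3.16 over the 9 members. For every member, the 3 PEL_3d libraries lay above both Sham libraries, a pattern found in 31.6% of genes tested. With all libraries as labelled, 8 of 9 were called, against 10.4% of genes, and Serping1 was not (adjusted p = 0.0653). Labels do not say whether replicates came from separate animals, so p-values measure the spread between these libraries, and in bulk tissue more cells of a type cannot be told apart from more RNA per cell.

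**Figure D1:**
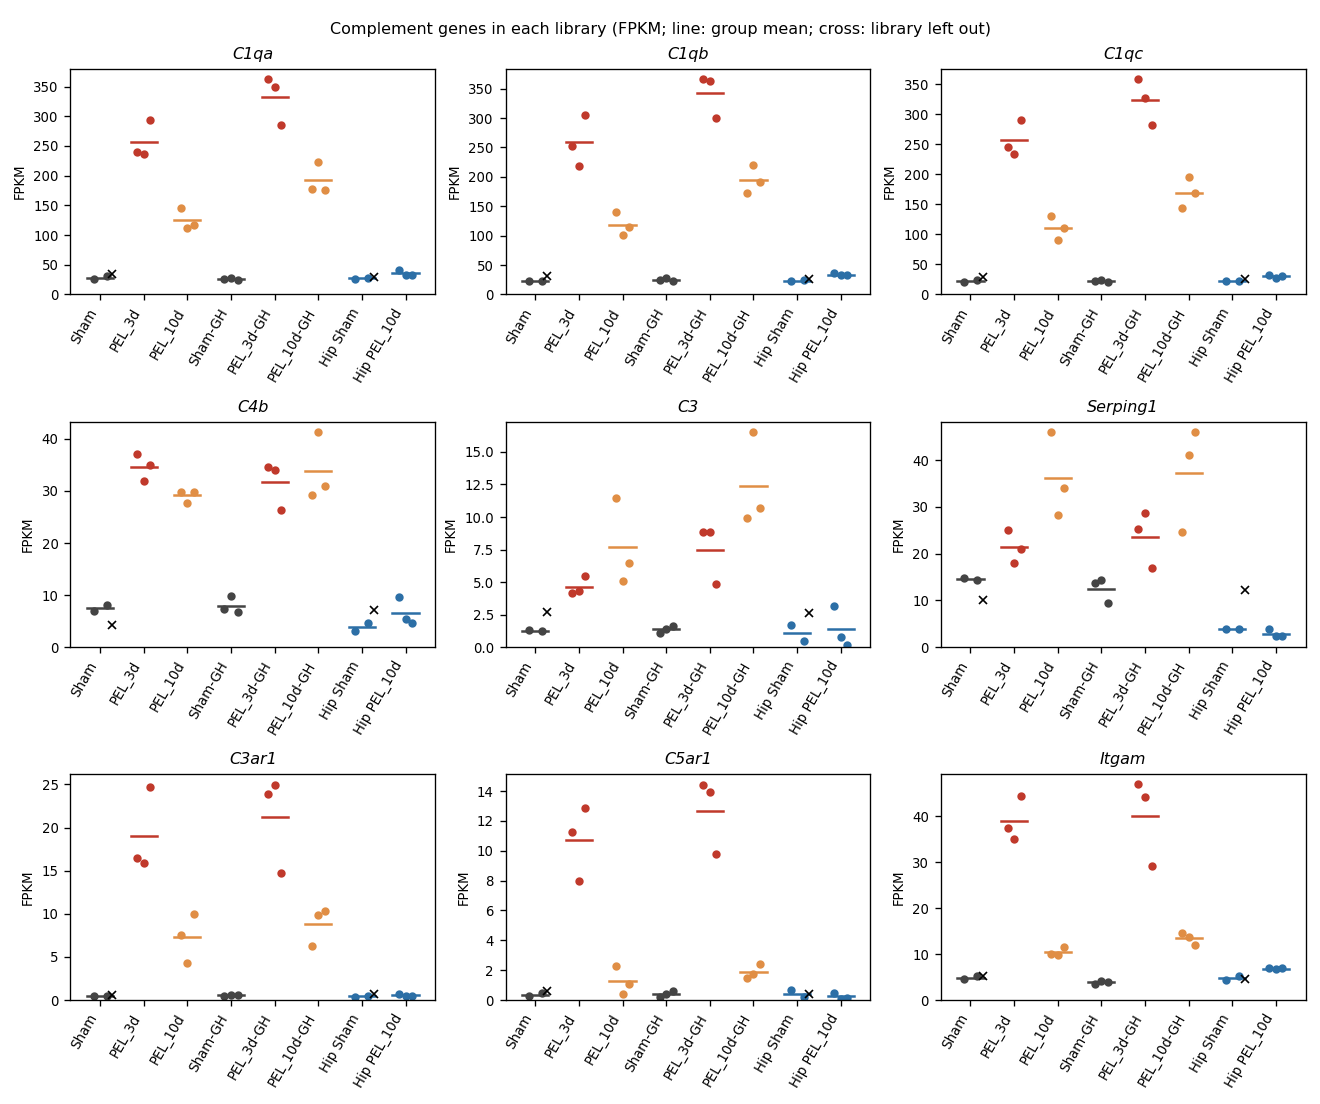
FPKM (linear axis from 0) of each of the 9 genes in every library, by group; points are libraries, lines are means of the libraries used, and crosses are the 2 libraries that went against their labels. C1q, C3ar1, C5ar1 and Itgam were highest at day 3, while C3 and Serping1 had their highest means at day 10, in both the untreated and the GH-treated series.

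C1qa, the first of the C1q chains, was listed at 25.7 and 31.0 FPKM in the Sham libraries, at 239, 236 and 294 FPKM in PEL_3d, and at 146, 112 and 117 FPKM in PEL_10d. C1qb was listed at 22.6 and 23.7 FPKM in Sham, 252, 219 and 305 in PEL_3d, and 140.1, 101 and 115 in PEL_10d. C1qc followed at 21.5 and 24.8 FPKM in Sham, 246, 234 and 291 in PEL_3d, and 130.4, 90.8 and 109.8 in PEL_10d. The 3 states did not overlap for any chain: PEL_3d was highest, PEL_10d lay between, and Sham was lowest. At day 10 the log2 fold changes against Sham were 2.12 ± 0.13 (SE) for C1qa, 2.34 ± 0.14 for C1qb and 2.23 ± 0.15 for C1qc. From day 3 to day 10 they fell by 1.03 ± 0.12, 1.12 ± 0.14 and 1.22 ± 0.13 on the log2 scale, with adjusted p of 0.00038, 0.00065 and 0.000242.

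Each of the 3 chains held a similar share of their summed level from library to library. Over all 24 libraries, C1qa made up 32.5% to 39.0% of their summed FPKM, C1qb 29.8% to 35.7% and C1qc 29.2% to 34.0%. These shares rest on the lengths behind the FPKM: for C1qc the values imply 1203 bases, while the annotation lists 1931 exon bases, and for C1qa and C1qb both give 1040 and 1088. The summed level was 74.7 ± 6.90 FPKM in Sham (SD, n = 2), 772 ± 105 in PEL_3d (n = 3) and 354 ± 57.5 in PEL_10d (n = 3).

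C4b, the classical pathway component cleaved next, was listed at 6.93 and 8.13 FPKM in Sham, at 37.0, 31.9 and 34.9 in PEL_3d and at 29.8, 27.8 and 29.9 in PEL_10d. Both lesion groups lay above Sham, and the lesion groups themselves were apart by a small margin. Its log2 fold change was 2.19 ± 0.09 at day 3 and 1.96 ± 0.08 at day 10, each against Sham, with adjusted p of 9.41e-08 and 2.12e-05 (edgeR). The step from day 3 to day 10 was -0.23 ± 0.07, which did not pass the threshold (adjusted p = 0.0567); DESeq2 gave 0.0355, and without PEL_3d replicate 2 edgeR gave 0.0152.

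C3, the central component, had its highest group mean at day 10. It was listed at 1.33 and 1.22 FPKM in Sham, at 4.16, 4.34 and 5.45 in PEL_3d and at 11.4, 5.09 and 6.45 in PEL_10d. All lesion libraries were above Sham. The days overlapped in FPKM, though not in normalised counts, and the highest value was in 1 PEL_10d library. By counts, the log2 fold change against Sham was 1.87 ± 0.16 at day 3 (adjusted p = 9.57e-06) and 2.63 ± 0.27 at day 10 (adjusted p = 0.00121). The rise from day 3 to day 10 was 0.77 ± 0.20 (adjusted p = 0.0297). That call was lost when any PEL_3d library was left out, with adjusted p of 0.0882, 0.0824 and 0.058 without replicates 1, 2 and 3, and when all hypothalamic groups were fitted together (0.0627).

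Serping1, the inhibitor of the C1 proteases, had its higher values at day 10. It was listed at 14.8 and 14.3 FPKM in Sham, 25.1, 17.99 and 21.0 in PEL_3d and 46.0, 28.2 and 34.0 in PEL_10d. The 3 states did not overlap, with PEL_10d highest, where for C1q PEL_3d was highest. The log2 fold change against Sham was 0.53 ± 0.13 at day 3 (adjusted p = 0.00804) and 1.28 ± 0.18 at day 10 (adjusted p = 0.00397), and the rise between them was 0.76 ± 0.17 (adjusted p = 0.0158). Without Sham replicate 2 or 3 the fit holds 1 Sham library, which is assumed to vary like the lesion group. The value was then 0.57 and 0.50 at day 3 (adjusted p = 0.0598 and 0.0809) and 1.32 and 1.25 at day 10 (0.0692 and 0.0626), so both calls were lost with little change in size. The day 3 call was also lost with all hypothalamic groups in one fit (0.134), and the rise between days without PEL_3d replicate 3 (0.0614).

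The receptors had the largest fitted falls between the days. C5ar1, the receptor for C5a, was listed at 0.244 and 0.5 FPKM in Sham, 11.3, 7.95 and 12.9 in PEL_3d and 2.30, 0.435 and 1.10 in PEL_10d. At day 10 its lowest library lay between the Sham libraries in FPKM. It fell by 2.93 ± 0.34 on the log2 scale from day 3 to day 10 (adjusted p = 0.000476). At day 10 its log2 fold change against Sham was 2.50 ± 0.63 (adjusted p = 0.0399), a call lost with all libraries as labelled (0.344) and without PEL_10d replicate 1 or 3 (0.074 and 0.0755). It was also lost without Sham replicate 2 or 3 (0.299 and 0.147), at values of 2.06 and 3.15, where the 1 Sham library left is assumed to vary like PEL_10d.

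C3ar1, the receptor for C3a, was listed at 0.492 and 0.432 FPKM in Sham, 16.5, 15.9 and 24.8 in PEL_3d and 7.55, 4.32 and 9.96 in PEL_10d. The 3 states did not overlap. Its log2 fold change was 5.34 ± 0.27 at day 3 (adjusted p = 2.16e-07) and 3.95 ± 0.39 at day 10 (adjusted p = 0.00106), and it fell by 1.39 ± 0.27 in between (adjusted p = 0.00768). Itgam, the alpha chain of CR3, was listed at 4.635 and 5.14 FPKM in Sham, 37.4, 35.1 and 44.3 in PEL_3d and 10.1, 9.83 and 11.5 in PEL_10d, again with no overlap. It fell by 1.88 ± 0.10 from day 3 to day 10 (adjusted p = 7.42e-06) and at day 10 was 2.11-fold above Sham (adjusted p = 0.000923).

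At day 10 against Sham, all 9 genes were thus called higher, where 7.97% of genes tested were, and their ranges did not overlap in normalised counts, where 22.3% of genes were likewise higher. When no library was left out, 8 of 9 were called, all but C5ar1, against 1.81% of genes. Between the days, 6 members were lower at day 10 (12.2% of genes tested) and 2 were higher, C3 and Serping1 (6.33% of genes tested).

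**Figure D2:**
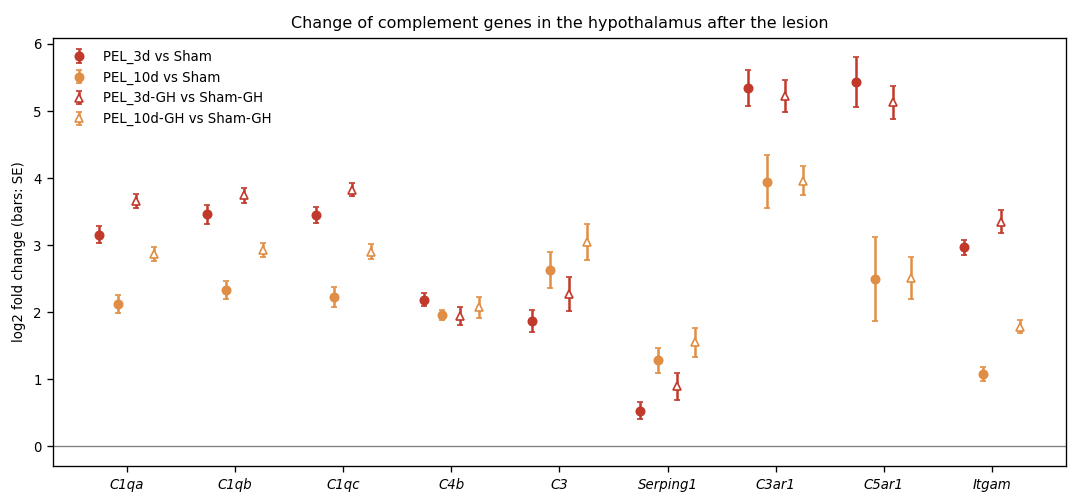
log2 fold change with its SE (bars) of each gene against the Sham group of the same treatment, from counts; filled circles are libraries without GH, open triangles with GH, red day 3 and orange day 10. Every value lies above 0, from 0.53 for Serping1 at day 3 to 5.43 for C5ar1 at day 3; Sham rests on 2 libraries and each other group on 3.

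Markers of several cell types moved with these genes. All 10 microglia markers were higher in PEL_3d than in Sham (median log2 fold change 2.08) and 7 of 10 in PEL_10d (0.93); their summed level was 150.2 to 159 FPKM in Sham, 662 to 715 in PEL_3d and 312 to 344 in PEL_10d. Blood monocyte and neutrophil markers summed to 2.29 to 7.34 FPKM in Sham, 18.8 to 51.5 in PEL_3d and 6.54 to 17.03 in PEL_10d. Of 8 of those 10 tested, 7 were called higher at day 3, and at day 10, 3 of 6 tested. The neutrophil gene Ly6g was at 0 in both Sham libraries and all PEL_10d libraries, and at most 0.467 FPKM in PEL_3d. Border macrophage markers summed to 4.79 to 5.41 FPKM in Sham, 30.6 to 61.9 in PEL_3d and 4.33 to 8.87 in PEL_10d. In the same order, astrocyte markers summed to 1150 to 1191, 2321 to 2555 and 1633 to 1733 FPKM. Fibroblast and meningeal markers summed to 149 to 161, 191 to 343 and 236 to 496 FPKM. At day 3, 7 of 10 astrocyte markers were called higher and 2 lower, and 6 of 8 fibroblast and meningeal markers higher and 1 lower. At day 10, 5 and 6 were called higher, with 0 lower in either list. Endothelial markers summed to 104 to 106, 157 to 178 and 127 to 149 FPKM in the same order, without overlap of either lesion group with Sham, and 6 of 8 were called higher at day 3 and 4 of 8 at day 10. Lymphocyte markers summed to 0.347 and 0.554 FPKM in Sham, 0.719 to 1.12 in PEL_3d and 2.15 to 2.96 in PEL_10d, without overlap, and 1 of 2 tested was called higher at day 10. Hypothalamic markers went the other way, with 8 of 10 called lower and 1 higher at day 3 (median -0.72) and 4 of 10 lower at day 10 (-0.53). Red blood cell markers had a median of 1.30 at day 10 against Sham (0 of 4 called by edgeR, 1 at an unadjusted p under 0.05) and of 1.56 from day 3 to day 10 (1 of 4 called, 4 at that p). The part of each cell type in the complement changes was not tested.

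Set against microglia markers, the members gave different values. For each library, log2(FPKM + 0.1) of a member was taken relative to the mean of the 10 microglia markers. Those markers differed among themselves, with log2 fold changes against Sham of 1.04 to 2.85 at day 3 and 0.13 to 1.82 at day 10. The values below therefore depend on which markers are averaged. C1qa, C1qb and C1qc were higher on this scale by 1.23, 1.52 and 1.52 at day 3 and by 1.31, 1.51 and 1.40 at day 10, so the fitted differences at the 2 times were close. C3ar1 was higher by 3.12 and 2.81. Itgam was higher by 1.02 at day 3 and by 0.25 at day 10. C4b overlapped Sham at day 3 (0.25) and was 1.11 above it at day 10 without overlap. Serping1 was lower by 1.40 at day 3 (mean -0.80 ± 0.30 SD, n = 3, against 0.60 in both Sham libraries) and higher by 0.44 at day 10. For C3 and C5ar1, whose length behind the FPKM varied between libraries, the same difference was also taken from CPM, each count scaled by the library total, an alternative chosen after seeing the data. C3 was at -0.10 from counts and -0.16 from FPKM at day 3, with overlapping ranges, and at 1.72 and 1.58 at day 10, without overlap. C5ar1 was at 3.24 from counts and 2.60 from FPKM at day 3, and at 1.34 and 0.52 at day 10, where the ranges overlapped on both scales.

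In the GH-treated series at day 3, C1qa, C1qb and C1qc were 1.505, 1.60 and 1.67 above Sham-GH, C4b overlapped it (-0.18), and Serping1 was lower by 1.26. At day 10 with GH, Serping1 overlapped Sham-GH (0.08). C5ar1 at day 10 with GH was at 0.91 from counts without overlap and at 0.52 from FPKM with overlap. An exact two-sided permutation test of each difference can reach no lower than p = 0.2 with 3 against 2 libraries and p = 0.1 with 3 against 3, and no adjusted p over the 36 tests was below 0.248. These differences are therefore descriptions. With FPKM, a pseudocount of 1 in place of 0.1 brought C3ar1 to 1.93 at day 3 and 1.68 at day 10, and, at day 3, C5ar1 to 1.25 and C3 to -0.51. With GH it brought C3ar1 to 1.78 and 1.29. It turned the sign of 3 values whose ranges overlapped: C3 at day 3 with GH to -0.22, and C5ar1 at day 10 to -0.11 without and -0.33 with GH.

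**Figure D3:**
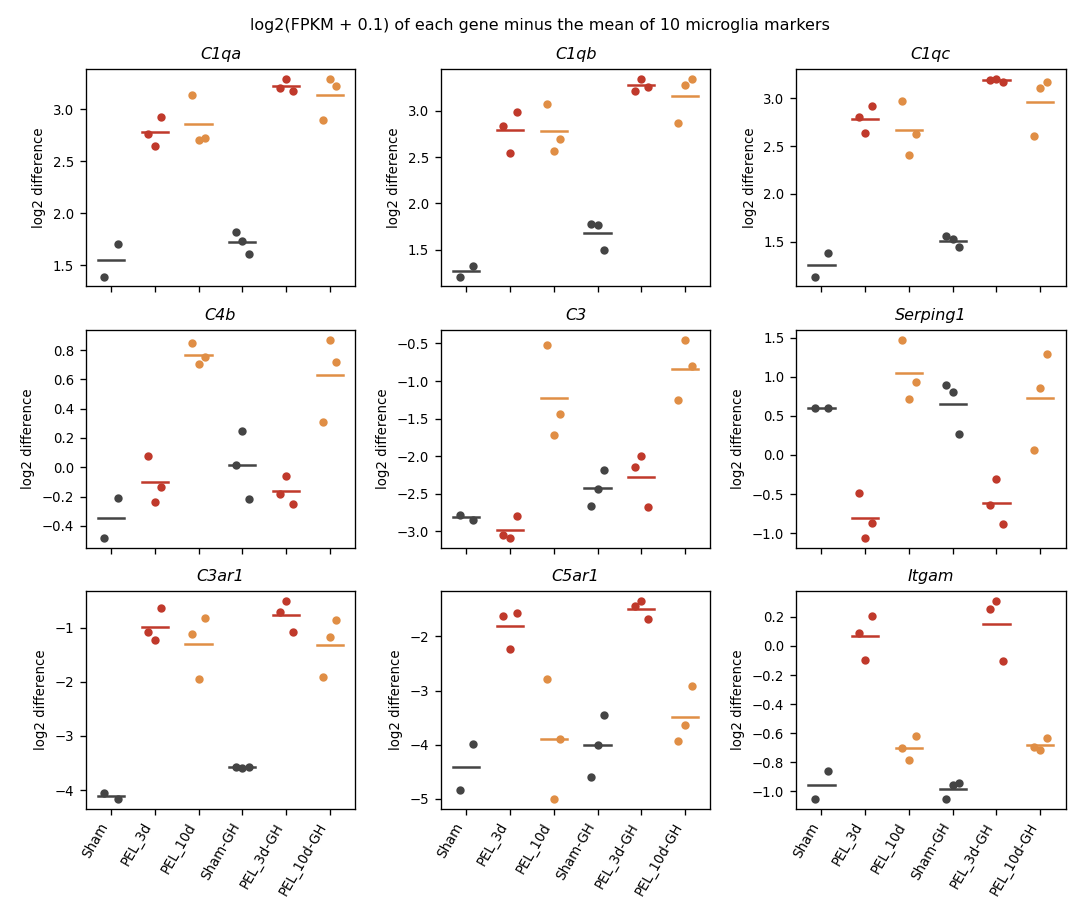
log2(FPKM + 0.1) of each gene minus the mean of 10 microglia markers (log2 axis) in each hypothalamic library; points are libraries, lines are group means, and the first Sham library is left out. C1q was 1.23 to 1.52 above Sham in PEL_3d, while Serping1 was 1.40 below it and C3 overlapped it.

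The genes whose course over 17 hypothalamic libraries came closest to a member's were sought by the root mean square difference of centred log2(FPKM + 0.1), among 13378 genes. Closest to the mean of the C1q chains were Fcgr3 (0.17), an immunoglobulin receptor of myeloid cells, Irf8 (0.17), a myeloid transcription factor, and Ptpn6 (0.20), a phosphatase of blood cells and microglia. Closest to C4b were H2-K1 (0.23), H2-D1 (0.23) and B2m (0.25), the chains of class I histocompatibility molecules. Closest to Serping1 were Cpxm1 (0.16), Scara3 (0.18) and Cxcl12 (0.21), the last a chemokine. Closest to C3 were C1ra (0.43), which encodes the C1r protease, Mmp2 (0.46), a matrix protease, and H2-K1 (0.49), but the length behind the FPKM of C3 varied 3.06-fold over all libraries of the series, and the part of this in these values was not tested. The libraries share groups and tissue, so likeness here is a description.

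With growth hormone, all 9 genes were also higher after the lesion, as were markers of several cell types. Against Sham-GH, all 9 were higher at day 3 (26.9% of genes tested were) and all 9 at day 10 (17.7%), with adjusted p from 2.78e-08 to 0.00376 and from 2.34e-07 to 0.00068 (edgeR). All 10 microglia markers were called higher at both times (medians 2.29 and 1.71), with sums of 116 to 136 FPKM in Sham-GH, 621 to 822 in PEL_3d-GH and 388 to 469 in PEL_10d-GH. Of blood monocyte and neutrophil markers, 4 of 5 tested were called higher at day 3 and 6 of 6 at day 10, and of red blood cell markers 2 of 4 and 5 of 5 (medians 0.90 and 2.49). Of border macrophage markers, 6 of 6 and 3 of 6 were higher (medians 1.77 and 0.63), of fibroblast and meningeal markers 6 of 8 at each time (2.19 and 1.62), of endothelial markers 5 of 8 at each time, with 1 lower at day 3, and of astrocyte markers 7 and 6 of 10, with 2 lower at day 3. Of neuron markers, 7 of 8 were lower at each time (-0.58 and -0.30). Their part was not tested. C1qa was listed at 25.9, 27.5 and 24.0 FPKM in Sham-GH, 363, 349 and 284 in PEL_3d-GH and 177, 223 and 176 in PEL_10d-GH. C1qb was listed at 25.2, 28.1 and 22.1, then 367, 362 and 301, then 173, 220.1 and 192. The 3 states did not overlap for either chain, and PEL_3d-GH was highest. C3 was listed at 1.07, 1.44 and 1.63 FPKM in Sham-GH, 8.82, 8.84 and 4.82 in PEL_3d-GH and 9.89, 16.5 and 10.7 in PEL_10d-GH. From day 3 to day 10, 6 members were lower (10.8% of genes tested): the C1q chains, C3ar1, C5ar1 and Itgam. C3, C4b and Serping1 differed by log2 values of 0.77 ± 0.31, 0.12 ± 0.15 and 0.65 ± 0.24, with adjusted p of 0.123, 0.603 and 0.0982. In the fit over all hypothalamic groups, C3 and Serping1 passed (0.0492 and 0.04996), as did Serping1 without PEL_10d-GH replicate 1 (0.0366), while C3ar1 was lost without PEL_3d-GH replicate 1 (0.051).

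Direct comparison of GH-treated with untreated libraries at the same time gave no call of a member in edgeR. At day 3, 0 of 9 members were called (0.027% of genes tested were higher). At an unadjusted p under 0.05 there were 4, all higher with GH, against 3.86% of genes tested, and DESeq2 called 0. Their log2 differences were 0.40 ± 0.12 for C1qa, 0.43 ± 0.12 for C1qb, 0.35 ± 0.11 for C1qc and 0.60 ± 0.24 for C3, with adjusted p from 0.592 to 0.729. In the same comparison the microglia markers had a median of -0.03 (2 of 10 at an unadjusted p under 0.05), the blood monocyte and neutrophil markers -0.76 (3 of 8) and the fibroblast and meningeal markers 0.50 (3 of 8), with 0 called by edgeR in each list. Their part was not tested. Without PEL_3d-GH replicate 3, C3 was called (adjusted p = 0.0234).

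At day 10 edgeR again called 0 of 9 (0% of genes tested were higher), 4 members had an unadjusted p under 0.05, all higher with GH, as 3.73% of genes tested did, and DESeq2 called 3. Those were the C1q chains, with log2 differences of 0.62 ± 0.12 for C1qa, 0.72 ± 0.12 for C1qb and 0.63 ± 0.14 for C1qc. Their adjusted p was 0.386, 0.35 and 0.52 by edgeR and 0.000279, 2.71e-05 and 0.0017 by DESeq2, which called 39 genes in all. For the 3 chains and Itgam, all PEL_10d-GH libraries lay above all PEL_10d libraries in normalised counts, as 6.15% of genes tested did. The microglia markers had a median log2 difference of 0.40 in the same comparison (0 of 10 called by edgeR, 6 at an unadjusted p under 0.05) and summed to 388 to 469 FPKM with GH against 312 to 344 without. Blood monocyte and neutrophil markers had a median of 1.41 (0 of 7 called by edgeR, 4 at an unadjusted p under 0.05) and summed to 18.65 to 45.5 FPKM with GH against 6.54 to 17.03 without. Hypothalamic markers had a median of 0.39 (6 of 10 at an unadjusted p under 0.05) and astrocyte markers 0.20 (4 of 10), with 0 called by edgeR in either list. The hypothalamic markers summed to 468 and 637 FPKM in PEL_10d-GH replicates 1 and 2 and to 5912 in replicate 3, where Pomc, a hormone precursor of arcuate neurons and the pituitary, was at 5479 FPKM, against 10.4 to 80.2 in the other 16 hypothalamic libraries used. Without that library, edgeR again called 0 members here and in the day 10 interaction, and 9 against Sham-GH. The part of these markers was not tested. C4b, Serping1 and C3ar1 differed by 0.23 ± 0.12, 0.05 ± 0.23 and 0.29 ± 0.28.

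In animals without a lesion, GH gave 0 of 9 calls by edgeR (0.798% of genes tested were higher) and 0 by DESeq2. The one member at an unadjusted p under 0.05 was Itgam, at -0.33 ± 0.11 (adjusted p = 0.17), where 6.69% of genes tested were lower at that p. The microglia markers had a median of -0.24 (range -0.40 to -0.04), with 0 of 10 called by edgeR and 5 at an unadjusted p under 0.05. Hypothalamic markers had a median of -0.22 (range -0.76 to 0.72), with 0 of 10 called by edgeR and 7 at that p. Of 8 endothelial markers, 1 was called higher and 1 lower. The part of these markers was not tested. Whether the lesion response itself differed with GH was tested as an interaction. At day 3, 0 of 9 passed in edgeR (0.00659% of genes tested were called higher) and 0 in DESeq2. C1qa and C1qc, 2 of 9, were higher at an unadjusted p under 0.05, against 4.14% of genes tested. Without PEL_3d-GH replicate 3, C1qa was called (adjusted p = 0.0412). At day 10, 0 of 9 passed in edgeR (0% of genes), 4 were higher at an unadjusted p under 0.05, against 4.47% of genes tested, and DESeq2 called 2 members among 96 genes in all: C1qa at 0.75 ± 0.18 in edgeR (adjusted p = 0.194, and 0.0126 by DESeq2) and Itgam at 0.70 ± 0.15 (0.161, and 0.0116). Without PEL_10d replicate 1, edgeR called C1qa (0.0478). Of the 10 microglia markers, 8 had an unadjusted p under 0.05 in that interaction at day 10 (median 0.57). So did 6 of 10 hypothalamic markers (median 0.51, range -0.77 to 5.66). Of blood monocyte and neutrophil markers, 2 of 8 did (median 1.62, range -0.28 to 2.64). In each of these lists edgeR called 0, and their part was not tested.

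In the hippocampus, 2 members were called at day 10, both C1q chains. C1qb was 1.44-fold (log2 0.52 ± 0.09, adjusted p = 0.0146) and C1qc 1.35-fold (0.43 ± 0.09, adjusted p = 0.0323) higher than in Sham, 2 of the 8 tested, where 2.09% of genes tested were higher. C1qb was listed at 22.4 and 24.0 FPKM in the 2 Sham libraries used and at 36.3, 33.0 and 32.5 in PEL_10d, and C1qc at 22.5 and 21.8 against 32.7, 28.2 and 30.1. C1qa and Itgam did not pass (0.37 ± 0.11 and 0.41 ± 0.12, adjusted p = 0.0907 and 0.0873). C4b, with the highest fitted value, differed by 0.67 ± 0.28 (adjusted p = 0.189), at 3.20 and 4.66 FPKM in Sham against 9.60, 5.46 and 4.58 in PEL_10d, with overlapping ranges, and by 0.43 with all libraries as labelled. C3ar1 differed by 0.23 ± 0.31 and Serping1 by -0.45 ± 0.23, which was called without PEL_10d replicate 1 (-0.69, adjusted p = 0.0436). With all libraries as labelled, Serping1 was at -1.11 (adjusted p = 0.494). C5ar1 was below the filter, with 3 to 20 counts in the 5 libraries.

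C3 varied widely between hippocampal libraries, at 1.68 and 0.483 FPKM in Sham and 3.18, 0.810 and 0.173 in PEL_10d, and its log2 fold change was -0.42 ± 0.86 (adjusted p = 0.805). With all libraries as labelled, 0 members were called by edgeR (0% of genes tested were higher), though 4 were higher at an unadjusted p under 0.05, against 3.63% of genes tested. Without Sham replicate 2 or 3 the fit holds 1 Sham library, which is assumed to vary like PEL_10d. C1qb was then at 0.475 and 0.58 (adjusted p = 0.178 and 0.108) and C1qc at 0.455 and 0.41 (0.227 and 0.211), so the calls were lost with values near the 0.52 and 0.43 of the whole set. The call of C1qc was also lost without PEL_10d replicate 3 (0.0533). Choroid plexus genes marked these Sham libraries: the 8 markers summed to 4341 and 5440 FPKM in Sham against 39.1 to 798 in PEL_10d, and 7 of 8 were called lower. Red blood cell markers had a median of 1.79, with 2 of 5 called higher, and summed to 21.6 and 37.1 FPKM in Sham against 49.4 to 144.5 in PEL_10d. The microglia markers had a median of 0.21, with 0 of 10 called by edgeR and 3 at an unadjusted p under 0.05. The part of these markers in the hippocampal values was not tested.

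The difference between regions in the day 10 response was tested directly. It was larger in the hypothalamus for 7 of 9 members, where 6.52% of genes tested were called in that direction. The interaction, on the log2 scale, was 1.73 ± 0.18 for C1qa, 1.79 ± 0.17 for C1qb, 1.77 ± 0.19 for C1qc, 3.69 ± 0.56 for C3ar1, 1.71 ± 0.31 for Serping1, 1.26 ± 0.32 for C4b and 0.64 ± 0.16 for Itgam. In the same test, 5 of 10 microglia markers were called higher (median 0.74), 5 of 8 fibroblast and meningeal markers (1.83), 6 of 8 choroid plexus markers (3.97) and 5 of 10 astrocyte markers (0.28), with 2 astrocyte markers lower. Their part was not tested. Adjusted p was 0.000339, 0.00018, 0.000322, 0.00262, 0.00692, 0.0278 and 0.0278 in the same order. C3 (3.02 ± 0.995) and C5ar1 (2.21 ± 1.15) did not pass, with adjusted p of 0.0741 and 0.242. Without hippocampal PEL_10d replicate 1 both passed, at values of 4.63 and 3.45 (adjusted p = 0.00239 and 0.0454). C3 also passed with no filter on low counts (3.04, adjusted p = 0.0416). With all libraries as labelled, the C1q chains and C3ar1 were called, 4 of 9, against 0.624% of genes. C4b, Serping1 and Itgam were not, at values of 1.73, 2.53 and 0.52 (adjusted p = 0.101, 0.0758 and 0.235). The call of C4b was also lost without hippocampal PEL_10d replicate 2 (adjusted p = 0.0546), hippocampal Sham replicate 3 (0.15) or hypothalamic Sham replicate 2 or 3 (0.109 and 0.0839), and that of Itgam without the same libraries (0.0563, 0.141, 0.117 and 0.0698) or hypothalamic PEL_10d replicate 3 (0.05 as rounded). Without a Sham replicate, 1 Sham library of that region is left and is assumed to vary like the other groups.

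**Figure D4:**
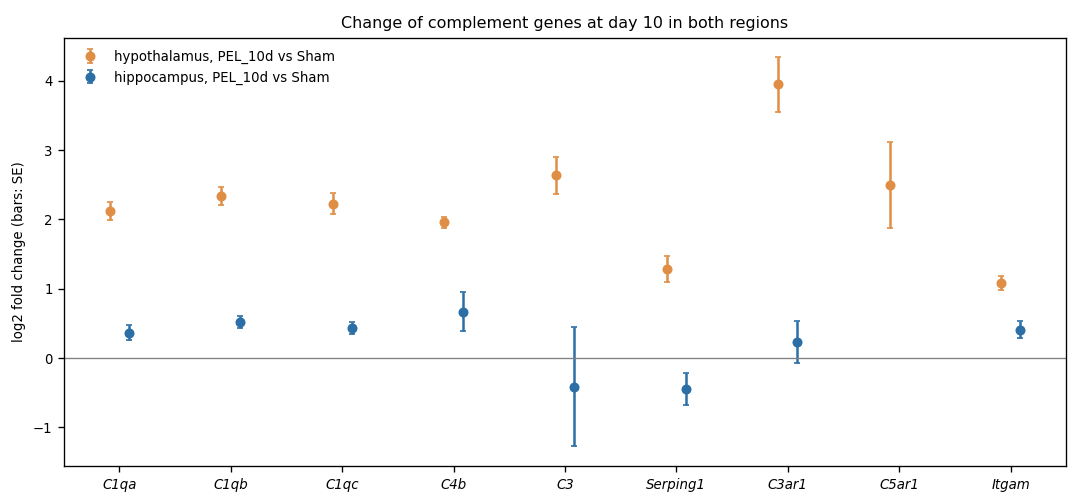
log2 fold change with its SE (bars) of each gene at day 10 against Sham in the hypothalamus (orange) and the hippocampus (blue), from counts of 3 lesion and 2 Sham libraries per region; C5ar1 was not tested in the hippocampus. Hypothalamic values run from 1.08 to 3.95 and hippocampal values from -0.45 to 0.67.

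The wider system was read from 46 further complement genes, of which 45 had a row. Among initiation genes of the classical and lectin pathways, 4 of 7 tested were higher at day 3 and 4 of 7 at day 10, where 22.2% and 7.97% of all genes tested were. At day 10, C1ra was higher by 2.42 ± 0.34 and C1s1, which encodes the C1s protease, by 1.57 ± 0.27 on the log2 scale, with adjusted p of 0.00369 and 0.00896. Of 14 listed, 6 were below the filter at day 3 and 1 had no row; the lectins Mbl1 and Mbl2 were at 0 in both Sham and all PEL_3d libraries. In the alternative pathway, 2 of 2 tested were higher at day 3 (22.2% of all genes): Cfb (3.77 ± 0.83, adjusted p = 0.00463), the convertase's protease, and properdin, Cfp (2.98 ± 0.37, adjusted p = 0.000123), which stabilises that enzyme. At day 10 the 1 of 2 called, against 7.97% of all genes, was Cfb (3.17 ± 0.56, adjusted p = 0.0102).

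Genes of the terminal pathway, which forms the membrane pore, were low. Of 7, 2 were tested at day 3 with 0 called by edgeR and 0 at an unadjusted p under 0.05, and all 7 together summed to 0.904 to 1.13 FPKM in PEL_3d and 0.809 to 0.949 FPKM in Sham. At day 10, 1 of 3 was called higher, against 7.97% of all genes tested. It was C6, with 12, 7 and 20 counts in PEL_10d and 0 in both Sham libraries, so it passed the filter through PEL_10d alone. It was at least 8.34-fold higher against a floor of 3 counts over the Sham group.

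Of 12 regulators tested at day 3, 2 were higher and 5 lower, where 22.2% of all genes tested were higher and 18.2% lower, and at day 10, 3 were higher, against 7.97% of all genes, and 0 lower. Clu, clusterin, an inhibitor of pore assembly, was higher by 0.53 ± 0.07 at day 10 (adjusted p = 0.00267). Vtn, vitronectin, another inhibitor of pore assembly, was higher by 0.64 ± 0.16 at day 10 (adjusted p = 0.0448). The lower genes at day 3 included Cd46 (-0.75 ± 0.21, adjusted p = 0.0153), a membrane-bound cofactor, Csmd1 (-0.55 ± 0.10, adjusted p = 0.00117) and Susd4 (-0.51 ± 0.07, adjusted p = 0.000282), the last 2 being membrane regulators expressed by neurons; 7 of 8 neuron markers were lower in the same comparison, with a median of -0.32.

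Most other receptors tested were higher too. Of 5 tested, 4 were higher at day 3 (22.2% of all genes tested) and 3 at day 10 (7.97%). Itgb2, the beta chain that pairs with Itgam, was higher by 4.04 ± 0.20 at day 3 and 2.93 ± 0.30 at day 10, with adjusted p of 1.93e-07 and 0.00121. Itgax, the alpha chain of the related receptor CR4, was higher by 4.74 ± 0.49 and 5.43 ± 0.35 (adjusted p = 3.58e-05 and 0.000142). C5ar2, the second C5a receptor, was higher by 2.31 ± 0.40 at day 3 (adjusted p = 0.00123), and Cd93 by 2.87 ± 0.24 and 1.34 ± 0.21 (adjusted p = 8.25e-06 and 0.00643). Per length, Itgam stood at 2.62 and 3.13 times Itgb2 in the Sham libraries, at 1.28 to 1.52 times in PEL_3d and at 0.654 to 1.17 times in PEL_10d, so the ratio was lower in both lesion groups than in Sham, without overlap.

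**Figure D5:**
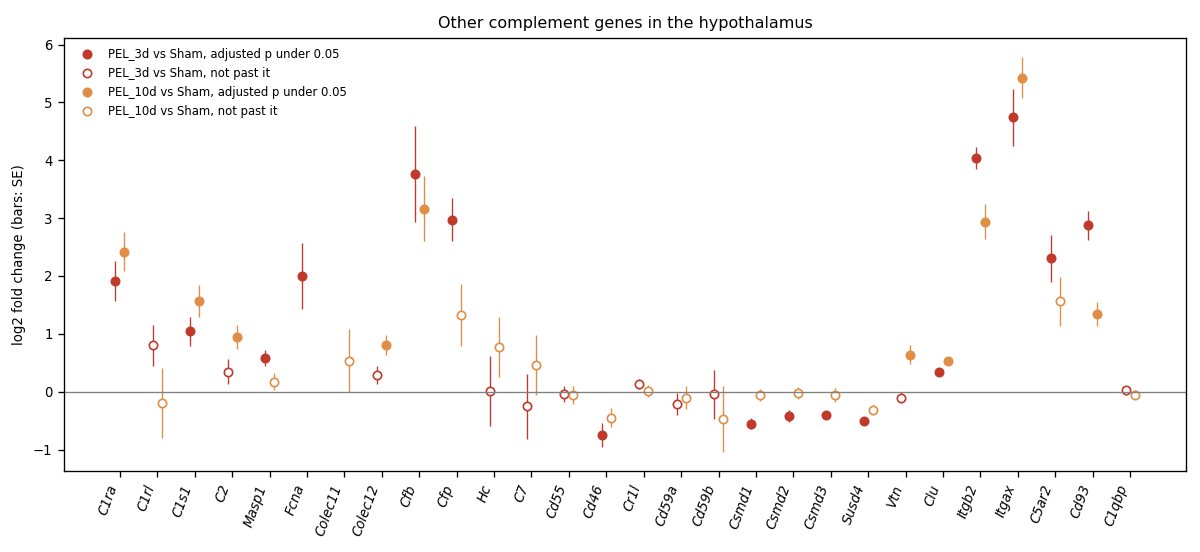
log2 fold change with its SE (bars) of the other complement genes tested, at day 3 (red) and day 10 (orange) against Sham; filled points passed an adjusted p of 0.05, and C6, at 0 in Sham, and 1 regulator are left out. Itgax at day 10 lies highest, at 5.43, and Cfb, at 3.77 and 3.17, is the highest gene that is no receptor, while Csmd1 (-0.55) and Susd4 (-0.51) lie below 0 at day 3.

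In the GH-treated series, the lists were counted in the same way. Against Sham-GH, 26.9% of all genes tested were higher and 25.2% lower at day 3, and 17.7% higher and 13.3% lower at day 10. Of initiation genes, 7 of 7 tested were higher at day 3 and 4 of 6 at day 10, and of receptors 4 of 5 at each time. Of 12 regulators, 4 were higher and 5 lower at day 3, and 5 higher and 3 lower at day 10, so the day 3 share of higher genes was near that of all genes. In direct comparisons of GH-treated with untreated libraries, 0 of the other complement genes were called by edgeR at either time. Over all genes tested, 0.027% were called higher at day 3 and 0% at day 10. At an unadjusted p under 0.05 there were 2 of 27 tested at day 3 and 1 of 29 at day 10. Of all genes tested, 3.86% and 3.73% were higher at that p. In the hippocampus, where 4.07% of genes tested were lower, 1 of 5 initiation genes tested was lower, Colec12 (-0.82 ± 0.155, adjusted p = 0.0238). Of 12 regulators, Csmd2 was higher (0.54 ± 0.09, adjusted p = 0.0127) and 2 were lower, Cd59a (-1.99 ± 0.18, adjusted p = 0.000962) and Cd55 (-1.03 ± 0.16, adjusted p = 0.0116), both membrane-bound inhibitors. The choroid plexus markers were lower in the same comparison, and their part was not tested.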

How the data were processed

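Tissue was frozen in liquid nitrogen, RNA was extracted with the RNeasy plus mini kit and libraries were made with the SMARTER mRNA-Seq kit, per the labels. The authors aligned reads with Hisat2 and counted them with featureCounts; the labels' processing notes name GRCm38 and mm10. The deposited table gives, per gene and library, an estimated count and FPKM for 22274 genes, of which 22219 were matched to symbols. Of the deposited counts, 8.22% were not whole, and they were rounded for the tests. Non-whole counts are not what the named counter gives by default, and how the authors made them is not given in the sources used here. The depth of 15095267 to 17973494 counts per library limits genes with few counts, as stated beside them.

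Groups came from the sample titles. Genes were filtered with filterByExpr (minimum count 10) and tested with edgeR 4.0.16 in R 4.3.3 (TMM scaling, quasi-likelihood, only the groups compared), with an adjusted p threshold of 0.05 over all genes tested. SEs were obtained from the fold change and the F statistic. Values relative to microglia used log2(FPKM + 0.1), with 1 as another pseudocount and CPM as an alternative chosen after seeing the data, and exact two-sided permutation tests (scipy 1.17.1). DESeq2 1.42.0, its size factors, no filter, a replicate block, one fit over all hypothalamic groups, all libraries as labelled and leaving out single libraries were alternatives. On simulated counts for PEL_3d against Sham (14873 genes), 97 of 100 genes changed 4-fold and 75 of 100 changed 2-fold were called, with 15 unchanged genes among all 187 calls. For PEL_10d-GH against PEL_10d (14769 genes) 94 and 82 were called, with 17 unchanged genes among 193 calls. In both, the share of unchanged genes among the calls was above the threshold of 0.05. Only 100 genes were changed at each fold, while the data gave 6035 and 0 calls in these comparisons, so the simulation does not measure power in the data.

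The closest pair of replicates differed by a chi-square of 2.97 per degree of freedom, so no library was counted as a duplicate. Members and lists were chosen with earlier results of these data known. Named were all members, some of the other complement genes past the threshold (at most 8 per comparison), and the 3 genes of mean FPKM of 1 or more closest to C1q, C3, C4b and Serping1. One regulator gene that this rule would name is not reported here.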

Additional observations from a re-analysis of the deposited data

Results flagged for a closer look

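The day 10 lesion response differed between hypothalamus and hippocampus, by an interaction term in edgeR, for 7 members. The difference in log2 fold change, hypothalamus minus hippocampus, was 1.73 for C1qa, 1.79 for C1qb, 1.77 for C1qc, 1.26 for C4b, 3.69 for C3ar1, 1.71 for Serping1 and 0.64 for Itgam. Without leaving out any library, C4b, Serping1 and Itgam no longer passed, at values of 1.73, 2.53 and 0.52. The hippocampal Sham libraries held choroid plexus markers at 4341 and 5440 FPKM; their part in these differences was not tested. Groups held 2 or 3 libraries used, too few for a test of single outlying libraries.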

How the results depend on the processing

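Of 156 member counts recomputed under the alternatives, 146 stayed within 1.5 times the reported count. In PEL_10d-GH against PEL_10d, DESeq2 called 3 members and edgeR 0, and in the GH by lesion interaction at day 10 it called 2 against 0. With all libraries as labelled, 0 members were called in the hippocampus and 4 in the region by lesion interaction. Those fits put back Sham libraries whose region markers went against their labels. Leaving out single libraries gave 0 to 1 members for PEL_3d-GH against PEL_3d, 0 to 1 for each GH by lesion interaction, 0 to 3 for the hippocampus and 5 to 9 for the region by lesion interaction, with fewer libraries by construction; no other cause was tested. No log2 fold change of a called member changed sign under these alternatives.

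Replicate numbers did not pair the libraries: deviations of same-numbered libraries correlated from -0.405 to 0.338, and in 18 of 72 pairings of a library with another group it correlated best with its own number. With the replicate block, 9 members were called in PEL_10d against PEL_3d (8 without), 3 in the hippocampus (2 without) and 8 in the region by lesion interaction (7 without). The added genes were C4b (-0.22, adjusted p = 0.0347), C3, lower in the hippocampus (-2.005, adjusted p = 0.00442, against -0.42 without the block), and C3 again (3.27, adjusted p = 0.0222); it changed no other count of members. When no library was left out, genes called over the whole table were 1683 in place of 6035 for PEL_3d against Sham, 269 in place of 1392 for PEL_10d against Sham, 0 in place of 873 in the hippocampus and 94 in place of 1616 in the region by lesion interaction. Depth limits C5ar1 and C3ar1 in Sham.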
